A study of Mus musculus with 6 samples.

Results

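The genes of oxidative phosphorylation were examined in RNA of mouse RPE/choroid, the pigmented layer behind the retina together with its vascular bed. They were taken from the expression table by gene symbol, as the rows for complex I (Nduf), complex II (Sdha to Sdhd), complex III (Uqcr and Cyc1), complex IV (Cox followed by a digit), complex V (Atp5), cytochrome c (Cycs) and the protein-coding genes of the mitochondrial genome (mt-). Of 33924 rows, 114 matched, and 113 remained after Atp5l-ps1, a processed pseudogene with a mean normalized count of 1214, was left out. A mean normalized count of at least 10 was required, which 111 of the 113 genes reached. The lowest of the 111 was Cox11 at 198.7, and the 2 below the minimum were Cox7b2 at 0.330 and Cox8c, which was listed at 0.

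The libraries came from 3 young and 3 aged C57BL/6J mice, a common inbred strain, with both eyes of a mouse pooled. By the labels, young animals were 1 to 2 months old. Aged animals were 20 to 24 months old by their titles but 22 to 24 months by the time field. The labels listed all mice as male, whereas the paper describes both sexes and gives another age range for the young mice. The design text and the molecule field of the labels state poly(A) RNA, whereas the protocol in the labels names the removal of ribosomal RNA and a total RNA kit for the 6 libraries and no poly(A) selection. The deposited table gave for each gene 1 mean normalized count over all 6 libraries, together with the columns of the authors' own young-to-aged comparison, which were not used. No value of a single library was given, so no SD, no interval and no difference between young and aged RPE/choroid could be computed, and the effect of age was not analysed here. All levels below are therefore means over both ages, and the sequencing depth behind them is unknown.

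Mitochondria make most of their ATP by passing electrons from NADH and succinate through complexes I to IV to oxygen, with cytochrome c as the mobile carrier between complexes III and IV. The proton gradient that results drives ATP synthase, which is complex V. A few hydrophobic core subunits are encoded by the small circular mitochondrial genome and the rest by nuclear genes, while complex II is encoded by nuclear genes alone. The RPE is known for its reliance on mitochondrial respiration, which spares glucose for the photoreceptors.

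The symbols did not select subunits only. The 100 nuclear genes held 76 subunits found in most tissues, 8 isoforms of complex IV subunits known mainly from other tissues or conditions, 11 assembly factors and 5 further genes. The assembly factors, which build the complexes but are not part of them, were Ndufaf1 to Ndufaf4 and 7 Cox genes that handle copper, heme or membrane insertion. The 5 further genes were Cox4nb, Atp5s, Atp5sl, Cox7a2l and Atp5l2. Cox4nb is a subunit of an endoplasmic reticulum complex, Cox7a2l is a relative of Cox7a, and Atp5l2 is annotated as a pseudogene. The remaining 13 genes were all of the protein-coding genes of the mitochondrial genome.

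Oxidative phosphorylation genes were among the most abundant transcripts of RPE/choroid. The 113 genes together held 4.08% of the summed mean normalized counts of the table, of which 2.34% came from the 13 mitochondrial genes and 1.74% from the 100 nuclear genes. Of the 113 genes, 98 had a mean above 1000, against 41.1% of all 18479 genes with a mean of at least 10, and 6 stood among the 100 highest rows of the table. To compare genes with each other, each mean was divided by the length of the gene's longest annotated transcript, which gives its level in mean normalized counts per kb. The methods of the study describe values in TPM, a unit of transcript abundance already divided by length, that were turned into normalized counts, so the deposited means may be scaled by length before this division. The median mean was 996 for genes with under 500 coding bases and 945 for those with 4000 or more, with 878, 783 and 824 in the bins between. Over 15558 genes the rank correlation of the mean with coding length was -0.015, and among the 76 common nuclear subunits it was 0.21. Among these subunits the level per kb had a rank correlation of -0.55 with the length of the longest transcript. Subunits with long annotated transcripts thus tended to have low levels per kb. Whether the means are scaled by length was not settled, and if they are, the division by length was made a second time. Levels of different genes are therefore given both per kb and as deposited means, and an order that differs between the scales is not established here. Per kb, all 76 common nuclear subunits were above the median level of all genes, 214, and 68 of them were above the 90th percentile. By the means, all 76 were above the median of all genes, 668, and 51 were above the 90th percentile. Their own median was 4319 per kb, with quartiles of 3197 and 9553, and 6196 as a mean, with quartiles of 3772 and 9708. The subunits were short, with a median coding sequence of 430.5 bases against 1386 bases over 15518 expressed coding genes.

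**Figure D1:**
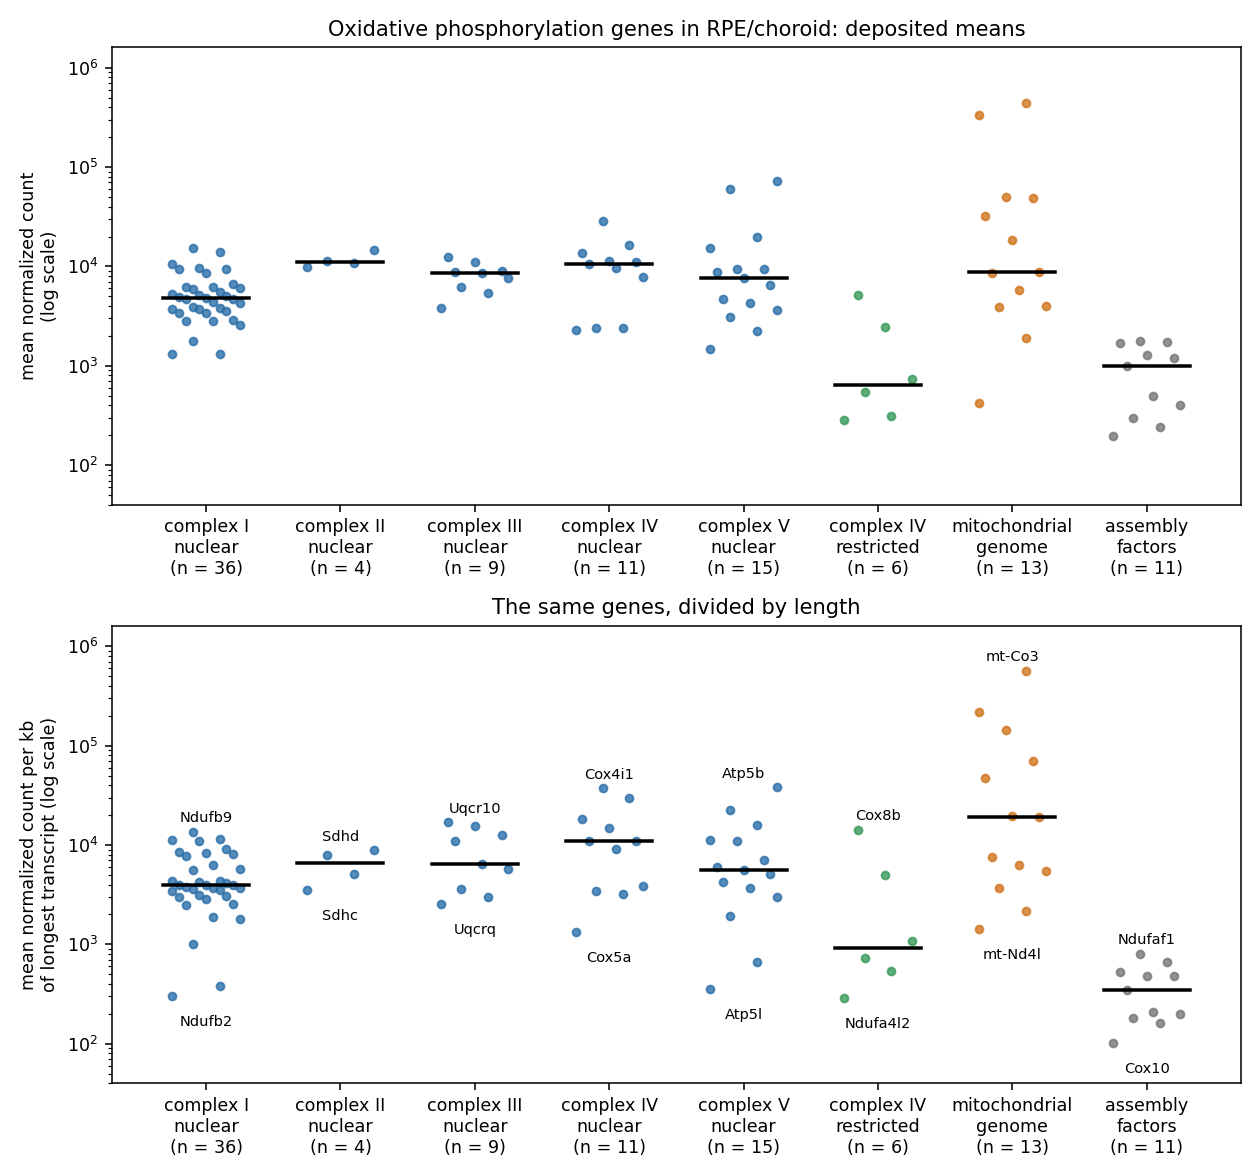
Genes with a mean of at least 10 by complex and genome, as deposited mean normalized counts (top) and per kb of the longest transcript (bottom), both on log axes. Each point is 1 gene as a mean over 6 libraries, black bars are medians over genes, and the lower panel names the highest and lowest gene of each set. Of the complexes, nuclear complex I subunits had the lowest median in both panels, while the highest was that of complex II by the means, 11045, and of complex IV per kb, 10992.

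Among the nuclear subunits, complex I had the lowest median on both scales, at 3927 per kb and a mean of 4785. Complex IV was the highest per kb at 10992, whereas by the means it was at 10535 and complex II the highest at 11045. Per kb, complexes II, III and V had medians of 6542, 6479 and 5550, and the medians of the means of complexes III and V were 8627 and 7677. Per kb, complex IV stayed at the top and complex I at the bottom when the median length of a gene's transcripts or of its coding transcripts was used. The ranges of all complexes overlapped widely, as the plot of levels by complex shows.

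Complex I, the NADH dehydrogenase, had 36 nuclear subunits with levels per kb from 304 for Ndufb2 to 13508 for Ndufb9. Ndufb9, Ndufb11 and Ndufa1, all accessory subunits outside the catalytic core, had the highest levels per kb at 13508, 11588 and 11121. The lowest were Ndufb2, Ndufab1 and Ndufb7 at 304, 381 and 999. Ndufab1 is the acyl carrier protein of mitochondria and also works in fatty acid synthesis. By the median transcript length these 3 were at 2321, 2641 and 1752, still among the 4 lowest of the 36. By the median length of coding transcripts, however, Ndufb7 was at 7112, above the complex I median of 6586. By the means, Ndufab1 at 1326, Ndufb2 at 1328 and Ndufb4 at 1763 were the lowest, whereas Ndufb7 was at 4431. Nuclear core subunits, a group that holds the flavin and the iron-sulphur clusters, included Ndufv1, the subunit that binds NADH and flavin, at 5772. Lower levels per kb were those of Ndufv2 at 3921, Ndufs3 at 3768, Ndufs8 at 3672, Ndufs1 at 3516 and Ndufs7 at 3463. The 7 core and 29 accessory subunits had medians of 3768 and 3965 per kb, and of 6653 and 4738 by the means.

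Complex II, the succinate dehydrogenase shared with the tricarboxylic acid cycle, had the narrowest range of the 5 complexes. It has only 4 subunits, against 9 or more nuclear subunits in the others, and a range over few genes tends to be narrower. Mean normalized counts were 14733 for Sdha, the flavoprotein, 9861 for Sdhb, the iron-sulphur protein, 11231 for Sdhc and 10859 for Sdhd, the membrane anchors. Per kb the 4 genes spanned 2.49-fold, from 3542 for Sdhc to 8821 for Sdhd. The 7 nuclear core subunits of complex I spanned 2.39-fold per kb. By the median transcript length Sdha was the highest at 28279 and Sdhb the lowest at 8635, as in the means.

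Complex III, which passes electrons from ubiquinol to cytochrome c, was led per kb by 3 small subunits. Uqcr10, Uqcrh and Uqcr11 had levels of 16917, 15513 and 12728. Of the catalytic subunits, levels per kb were 6479 for Uqcrfs1, the Rieske iron-sulphur protein, and 3027 for Cyc1, the heme-bearing cytochrome. The 2 core proteins Uqcrc1 and Uqcrc2 had levels of 3641 and 5777, and the lowest subunit was Uqcrq at 2533. By the median transcript length Uqcrq was at 8477 and Uqcrfs1 was the lowest at 6479. By the means the highest were Uqcrh at 12426, Uqcrc2 at 10953 and Uqcrc1 at 9003, and Uqcrq was the lowest at 3853. Cycs, the soluble cytochrome c itself, had 8434 mean normalized counts and a level of 2701 per kb, on a transcript of 3123 bases.

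Complex IV, the cytochrome c oxidase that reduces oxygen, held the highest nuclear subunits of the respiratory chain. Cox4i1, the common form of subunit IV, had 28443 mean normalized counts and, per kb, a level of 37180. Cox8a and Cox6b1 followed per kb with levels of 29554 and 18164. The lowest were Cox5a, Cox7c and Cox6c at 1320, 3211 and 3468, and Cox5b was at 9027. Cox5a was the lowest with each of the 3 transcript lengths, whereas Cox6c reached 16803 by the median transcript length. By the means, Cox7c at 2276, Cox6a1 at 2389 and Cox5a at 2399 were the lowest. Ndufa4, once counted as a complex I subunit and now assigned to complex IV, had a mean of 13542 and a level of 10992.

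Complex V was led by its catalytic head. Atp5b, the beta subunit that makes ATP, had a mean normalized count of 72995, the highest of all nuclear members and rank 29 of the table. Atp5a1, the alpha subunit, followed at 59831 and rank 40, and Atp5c1, the gamma subunit of the central stalk, at 19571. Per kb these were 38097, 22375 and 11280. Alpha and beta are present in several copies per enzyme and gamma once. Atp5k, a small subunit of the membrane part, reached 15759 per kb. The lowest levels per kb were those of Atp5l, Atp5g1 and Atp5g2 at 359, 664 and 1945. The same 3 genes had the lowest means, at 2265, 3129 and 1465, and all 3 have copies elsewhere in the genome whose summed means were higher. By the median transcript length Atp5l, Atp5g1 and Atp5g2 were at 3932, 1169 and 2144.

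The 11 assembly factors had a median level of 351 per kb and a median mean of 997, so the median of the 76 subunits was 12.3 times higher per kb and 6.21 times higher by the means. Ndufaf1 was the highest per kb at 802 and Cox17 by the means at 1777, and on either scale 72 of the 76 subunits were above the highest. Ndufaf3, Ndufaf4 and Ndufaf2 had levels of 671, 479 and 209 per kb. For complex IV, Cox19 and Cox17, which carry copper, were at 521 and 482, and Cox10, which makes the precursor of its heme, was the lowest of all per kb at 103. All 11 were below the lower quartile of the subunits with each of the 3 transcript lengths and by the means. Assembly and stability factors with other names, of which 20 of 34 were listed, had a median level of 500 per kb, and 19 of the 20 had a mean of at least 10. Sco2, a copper chaperone of complex IV, was listed at 0, and the highest level per kb was that of Surf1, a complex IV assembly factor, at 2567.

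Genes that supply or regulate the complexes differed by group. The 9 carriers and energy transfer genes had a median level of 5929 per kb and a median mean of 11532, and Slc25a4, the adenine nucleotide carrier of muscle and heart, was the highest of them per kb at 36402, beside 38097 for Atp5b. Ckmt2, the mitochondrial creatine kinase of muscle, had a level of 6302, and Slc25a31, the carrier of germ cells, only 6.53. All 13 tricarboxylic acid cycle genes had a mean of 3031 or more, with a median of 5882, and their median level per kb was 2175. The 3 ATP synthase proteins with other names, which include the inhibitor Atpif1 at a mean of 1649, had a median level of 1626 per kb. Genes that transcribe the mitochondrial genome or activate nuclear subunit genes, of which 12 of 16 were listed, had a median level of 228 per kb, beside 214 for all genes, and a median mean of 895, beside 668. Among them Tfam, which packages and activates mitochondrial DNA, had a level per kb of 529, Polrmt, the mitochondrial RNA polymerase, 88.1, Nrf1 340, Gabpa 595, Esrra 1193 and Ppargc1a, a coactivator of mitochondrial biogenesis, 167.

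The 13 genes of the mitochondrial genome are transcribed as long precursors that are cut into messenger RNAs. Their levels per kb spanned 391-fold, from 1436 for mt-Nd4l to 561993 for mt-Co3, and their means 1030-fold between the same genes. Mean normalized counts of the complex IV genes were 440602 for mt-Co3, the second highest row of the table, 333885 for mt-Co1 and 48325 for mt-Co2. These 3 encode the catalytic core of the oxidase. mt-Co1 and mt-Co3 held 81.0% of the counts of all 13 genes and 1.90% of the counts of the table. mt-Co3 was 7.95 times higher than mt-Co2 per kb and 9.12 times by the means.

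Complex I genes of the mitochondrial genome varied most. mt-Nd3 had a mean normalized count of 49681, mt-Nd1 18484, mt-Nd4 8616, mt-Nd2 5737, mt-Nd5 3912, mt-Nd6 1901 and mt-Nd4l 426. Of the 7, 5 fell within the range of the nuclear complex I subunits per kb, while mt-Nd1 and mt-Nd3 exceeded it. By the means 4 of the 7 fell within it. mt-Nd6, the only protein-coding gene on the other strand, had a level of 3662 per kb, above that of mt-Nd5 at 2145, although its mean was the lower of the pair. mt-Cytb, the cytochrome b of complex III, had a mean of 8735 and a level of 7635 per kb. Of complex V, mt-Atp6, the proton channel subunit, had a mean of 32232 and mt-Atp8 3964, with levels of 47330 and 19429 per kb.

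In 2 places neighbouring mitochondrial genes overlap and are known to share a messenger RNA. mt-Atp8 and mt-Atp6 share 43 bases, and mt-Atp6 was at 2.44 times mt-Atp8 per kb and 8.13 times by the means. mt-Nd4l and mt-Nd4 share 7 bases, and mt-Nd4 was at 4.36 times mt-Nd4l per kb and 20.2 times by the means. The genes of both pairs also differed in the share of their sequence that is their own, measured as words of 50 bases found in no other annotated gene. This share was 100% for mt-Atp8 but 0.475% for mt-Atp6, 1.21% for mt-Nd4l, 37.8% for mt-Nd4, 2.01% for mt-Nd3, 0.136% for mt-Co3, 48.9% for mt-Co1 and 0% for mt-Co2. Nuclear insertions of mitochondrial DNA hold the same letters. The share was 91.8% or more for the other 5 genes. Among the insertions, Gm10925 for mt-Atp6 and Gm10222 for mt-Nd4l had rows, with means of 42868 and 612. The insertions that share most with mt-Co2, mt-Co3, mt-Nd3 and mt-Nd4 had no matched row. How the reads of such stretches were divided was not tested.

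**Figure D2:**
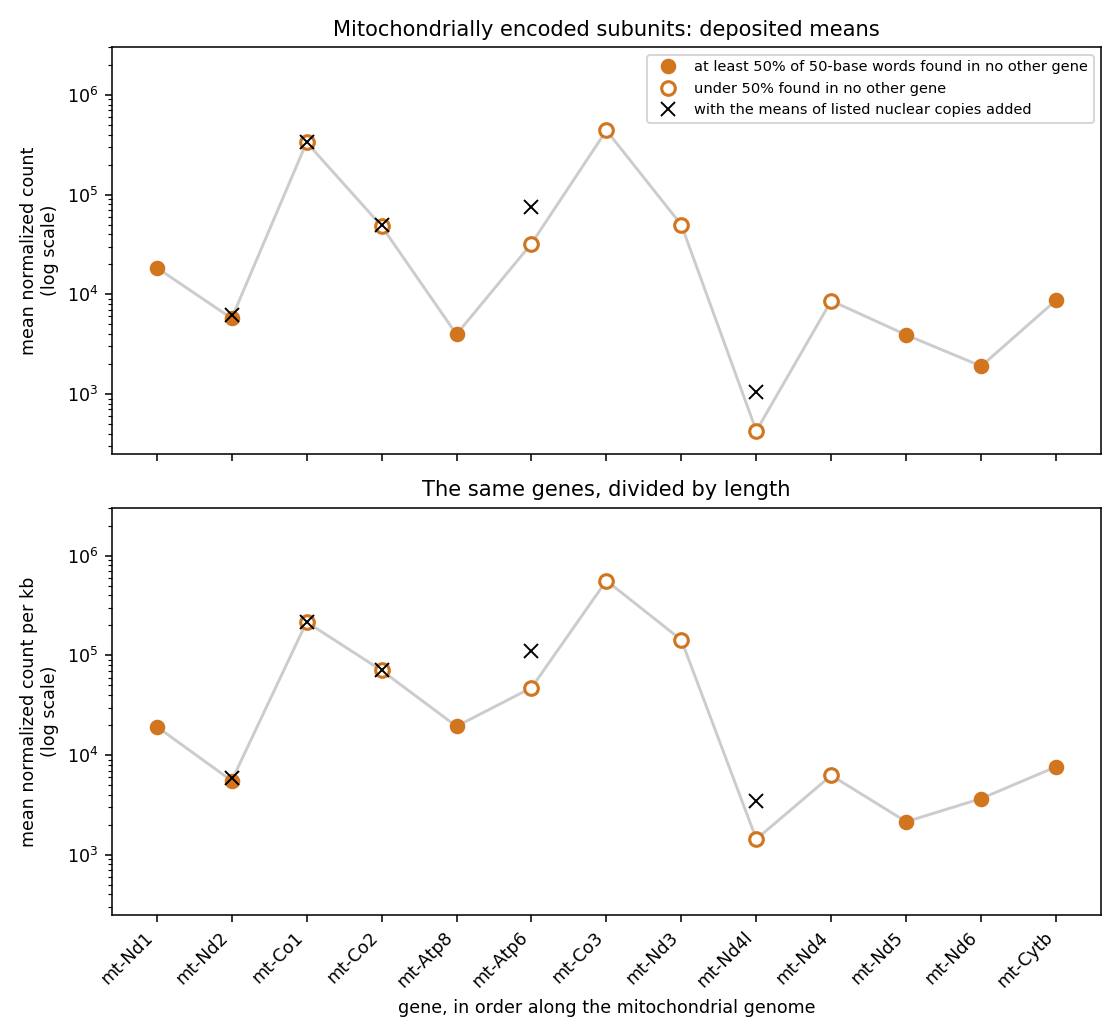
The 13 mitochondrially encoded genes in order along the mitochondrial genome, as deposited mean normalized counts (top) and per kb (bottom), both on log axes, each a mean over 6 libraries, with a grey line as a guide. Open circles mark the 7 genes with under 50% of their 50-base words found in no other gene, and crosses give the value with the means of listed nuclear copies added, which per kb raises mt-Atp6 from 47330 to 110278 and mt-Nd4l from 1436 to 3496.

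The shares of the 2 genomes differed between complexes. By the means, mitochondrial genes held 87.7% of the counts of the 14 common complex IV subunits and 31.0% for the 43 complex I subunits. They held 13.7% for the 17 complex V subunits and 10.7% for the 10 complex III subunits. These shares were not computed per kb or with copies added. With its copy Gm10925, the mean of mt-Atp6 rises from 32232 to 75099, so the complex V share depends on how copies are counted. For complex IV, each of the 3 mitochondrial genes was above the highest nuclear subunit per kb, which was Atp5b at 38097. By the median transcript length, under which Atp5b reached 95045, and also by the means, 2 of the 3 were above it. The mitochondrial ribosomal RNAs, which the removal of ribosomal RNA targets, had means of 448 for mt-Rnr1 and 2671 for mt-Rnr2.

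Several complex IV subunits exist as a common form and a form known mainly from heart and skeletal muscle. The muscle forms were present in RPE/choroid. Cox8b had a mean normalized count of 5112 beside 16255 for Cox8a, Cox7a1 had 2430 beside 9657 for Cox7a2, and Cox6a2 had 738 beside 2389 for Cox6a1. The common form was 2.08, 2.93 and 3.55 times higher per kb and 3.18, 3.97 and 3.24 times by the means, and per kb the muscle forms made up 32.5%, 25.5% and 22.0% of their pairs. Genes of skeletal muscle were also abundant in the same libraries, with 10 of 10 fixed markers at a mean above 10. The contractile markers Myh4, Tnnt3, Mylpf and Acta1 had means of 48944, 42490, 41426 and 40522, and creatine kinase Ckm had 35123, whereas Tnnc2 had 21.6. The dissection described for these samples removed the muscles of the eye. The part of muscle RNA in the levels of Cox8b, Cox7a1, Cox6a2, Slc25a4 and Ckmt2 was not tested.

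The other restricted forms were far below their common forms. Per kb, Cox4i2, Cox6b2 and Ndufa4l2 were at 736, 533 and 289, above the median of all genes, 214. By the means they were below the median of all genes, 668. Cox4i2, known from lung and oxygen sensing cells, had a mean of 539 beside 28443 for Cox4i1, a ratio of 50.5 per kb. Cox6b2, known from testis, had 312 beside 11225 for Cox6b1, a ratio of 34.1. Ndufa4l2, a relative of Ndufa4 that is induced by low oxygen, had 288 and was 38.0 times lower than Ndufa4 per kb, or 94.0 times by the median transcript length. The testis forms Cox7b2 and Cox8c had means of 0.330 and 0, and the testis cytochrome c gene Cyct had 0.827. The 4 fixed markers of spermatids were at 1.15 or less. Of the 8 restricted isoform genes, 4 lie on chromosome 7, which holds 10 of all 100 nuclear genes of the set.

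**Figure D3:**
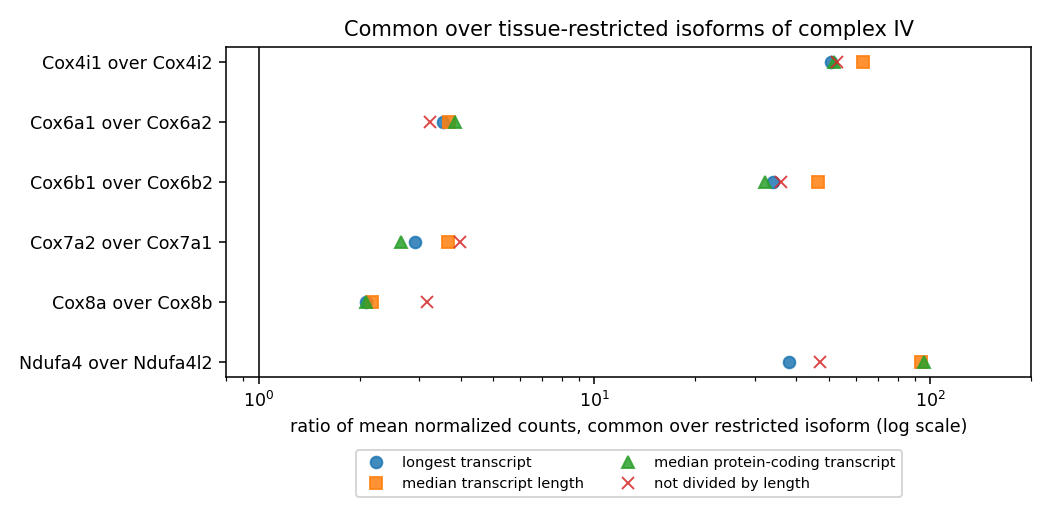
Ratio of the common to the restricted isoform for 6 pairs of complex IV subunits, on a log axis, from means over 6 libraries. Symbols show 3 choices of transcript length and the ratio with no division by length. The 3 muscle forms, Cox6a2, Cox7a1 and Cox8b, were closest to the common form, at 2.08 to 3.55-fold below it per kb, while Cox4i2, Cox6b2 and Ndufa4l2 lay 34.1 to 50.5-fold below it.

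The tissue was a mixture. Markers of the RPE were high, with Ttr at 397586, Rgr at 297444 and Rpe65 at 113930, though Best1 had a mean of only 81.8. Rod photoreceptor markers had a mean of at least 10 in 8 of 8 genes. The same held for 5 of 5 melanocyte markers, several of which RPE cells also express, and for 5 of 5 fibroblast, 6 of 6 endothelial, 8 of 8 smooth muscle and pericyte, 5 of 5 listed macrophage and 3 of 3 listed red cell markers. The levels of the oxidative phosphorylation genes are sums over these cells, and in such bulk samples fewer cells of a type and less RNA per cell cannot be told apart.

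Many subunit genes have processed copies elsewhere in the genome, and rows of such copies held large counts. A copy was counted where it lies at another locus, shares at least 10% of its 50-base words with the gene and is not itself one of the 113 genes, which leaves out Atp5l2 as a copy of Atp5l. There were 42 such copies with a row, belonging to 28 of the 113 genes, and 36 of them had a mean of at least 10. For 11 genes the copies together exceeded the gene itself. The 37 copies of nuclear genes summed to 97775 counts, or 13.8% of the counts of the 100 nuclear genes. A further 28 copies in the annotation had no matched row. Copies are often shorter than the gene, as with 309 bases for Gm10221 against 6310 for the longest transcript of Atp5l, so if the means are scaled by length the ratios below are not ratios of reads.

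In the coding stretches shown here, few or no bases separate a gene from its copies. These stretches are only part of each nuclear gene. The share of words found in no other annotated gene was 92.4% for Atp5l, 77.9% for Cox7c and 74.1% for Cycs. For mt-Atp6 it was 0.475%. Below are 90 bases of the coding sequence of Cox7c, Atp5l and Cycs from GENCODE for GRCm38, each followed by the same stretch of a copy that differs, with the differing bases of the copy in capitals, and the first 90 bases of mt-Atp6, whose copy is identical.
Cox7c: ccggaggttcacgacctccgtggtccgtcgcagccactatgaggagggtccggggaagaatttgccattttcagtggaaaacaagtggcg
Gm10012: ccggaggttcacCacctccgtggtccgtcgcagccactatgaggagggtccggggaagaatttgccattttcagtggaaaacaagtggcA
Atp5l: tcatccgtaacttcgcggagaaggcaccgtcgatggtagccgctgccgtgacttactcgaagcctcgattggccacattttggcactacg
Atp5l-ps1: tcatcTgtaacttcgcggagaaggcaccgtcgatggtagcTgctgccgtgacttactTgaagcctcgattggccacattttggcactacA
Cycs: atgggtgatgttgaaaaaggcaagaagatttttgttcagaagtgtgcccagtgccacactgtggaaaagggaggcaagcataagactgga
Gm10108: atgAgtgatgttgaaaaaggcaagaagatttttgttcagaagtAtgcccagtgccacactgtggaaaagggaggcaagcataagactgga
mt-Atp6: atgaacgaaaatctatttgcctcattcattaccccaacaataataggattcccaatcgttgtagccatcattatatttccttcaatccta

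Cox7c, a small subunit of complex IV on chromosome 13 (chr13:86044816-86046904, minus strand), had a mean normalized count of 2276. The processed pseudogene Gm12338 (chr11:75599763-75599954, minus strand) is identical to all 189 coding bases of Cox7c and had 11037 counts, while Gm10012, which differs at 2 bases, had 955. The copies of Cox7c together held 5.27 times its counts.

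Atp5l, the g subunit of complex V (chr9:44912557-44920742, minus strand), had a mean of 2265, and Gm10221 (chr5:24581554-24581862, minus strand), identical over all 309 coding bases, had 14242. Atp5l-ps1, the pseudogene left out by the symbol rule, differs at 5 of the 309 bases. The copies of Atp5l outside the 113 genes together held 7.05 times its own counts.

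Cycs (chr6:50562563-50566538, minus strand) had 8434 counts. Gm10053 (chr19:24875686-24876631, plus strand), annotated as protein-coding and identical over all 315 coding bases, had 7592, and Gm10108, which differs at 2 bases, had 5277. With Gm13772 at 1289, its copies held 1.68 times the counts of Cycs.

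The other genes below their copies were Atp5g2, Ndufb4, Atp5h, Atp5g1, Ndufab1, the pseudogene Atp5l2 and the mitochondrial genes mt-Nd4l and mt-Atp6. The copies held 7.16 times the counts of Atp5g2, 3.09 times those of Ndufb4, 2.51 times those of Atp5h, 1.61 times those of Atp5g1 and 1.03 times those of Ndufab1. Gm10175 and Gm10231 are each identical to all 438 coding bases of Atp5g2, and Gm3244 (Ndufb4c) to all 387 of Ndufb4. Gm10925 (chr1:24613974-24614651, minus strand), a nuclear insertion of mitochondrial DNA, is identical to 678 coding bases of mt-Atp6 and had 42868 counts, against 32232 for mt-Atp6 itself. Reads from an identical stretch carry nothing that tells the gene from its copy, so the counts of these genes are uncertain, and whether the copies are transcribed was not tested.

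**Figure D4:**
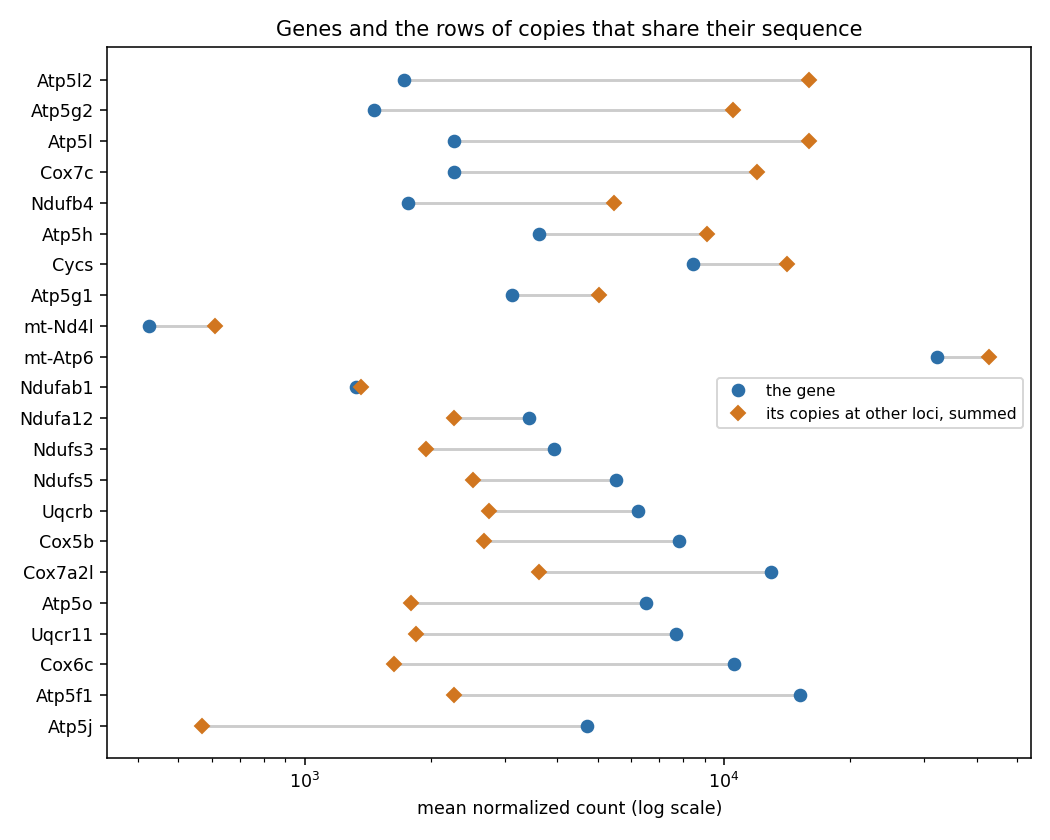
Mean normalized count of the gene (blue circles) and of its listed copies at other loci, each sharing at least 10% of its 50-base words and not itself among the 113 genes, summed (orange diamonds), on a log axis, for the 22 genes whose copies held more than 0.1 times their counts. Genes are ordered by the ratio, and for the upper 11 the copies held more than the gene.

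The copies changed the order within the c subunit of ATP synthase, the ring that turns with the flow of protons, which 3 genes encode as the same mature protein. Atp5g3 held 67.1% of the mean normalized counts of the 3 genes, Atp5g1 22.4% and Atp5g2 10.5%. Per kb Atp5g3 held 80.6%, Atp5g2 14.4% and Atp5g1 4.93%, so the order of Atp5g1 and Atp5g2 differed between the scales even without copies. With the counts of copies added to each gene and no division by length, Atp5g2 held 40.6%, Atp5g3 31.8% and Atp5g1 27.7%.

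Promoters of the nuclear genes were examined for sequence features that the symbol rule did not use. RefSeq windows for GRCm38, from 250 bases before to 50 after the start of transcription, matched 80 of the 113 genes, 64 of them common subunits with 69 windows. Median GC content was 58.7% in these 69 windows and 52.7% in all 32851 windows. All windows belonged to 27025 genes, which were not chosen by expression or coding type. TGCGCA, the core of the site of NRF1, a factor known to activate respiratory chain genes, was found on either strand in 27.5% of the subunit windows and in 7.76% of all windows. CGGAAG, the core of sites of ETS factors such as GABPA, was found in 40.6% against 16.9%, and AAGATGG, the core of the YY1 site, in 15.9% against 6.34%. TATAAA, the TATA box, was found in 8.70% against 13.6%. The part of the higher GC content of the subunit windows in these shares was not tested. A match is not evidence of binding.

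A longer stretch within the NRF1 site, GCATGCG, chosen after the sequences were seen, was found in 17.4% of subunit windows and 3.58% of all windows. The 250 bases before the RefSeq start are shown for Cycs, Atp5k and Cox8b, with matches to GCATGCG on either strand in capitals. Cycs is the electron carrier, Atp5k the highest nuclear membrane subunit of complex V per kb and Cox8b the highest muscle isoform. Cycs lies at chr6:50566570-50566819, Atp5k at chr5:108434400-108434649 and Cox8b at chr7:140900447-140900696, all on the minus strand of GRCm38.
Cycs: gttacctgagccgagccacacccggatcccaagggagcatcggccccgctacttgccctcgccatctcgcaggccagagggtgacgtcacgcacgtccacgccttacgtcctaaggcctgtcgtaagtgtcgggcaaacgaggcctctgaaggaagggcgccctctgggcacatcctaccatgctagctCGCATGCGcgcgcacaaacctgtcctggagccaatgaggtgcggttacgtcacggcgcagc
Atp5k: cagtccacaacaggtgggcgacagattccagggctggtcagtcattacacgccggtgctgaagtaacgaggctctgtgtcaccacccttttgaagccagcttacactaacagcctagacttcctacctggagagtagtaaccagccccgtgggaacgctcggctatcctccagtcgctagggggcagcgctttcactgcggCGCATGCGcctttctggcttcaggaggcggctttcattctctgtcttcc
Cox8b: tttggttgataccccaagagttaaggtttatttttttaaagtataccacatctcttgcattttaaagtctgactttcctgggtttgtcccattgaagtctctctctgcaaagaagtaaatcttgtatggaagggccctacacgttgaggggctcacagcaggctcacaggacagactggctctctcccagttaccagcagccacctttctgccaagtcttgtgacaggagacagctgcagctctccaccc

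Cycs and Atp5k each hold 2 overlapping matches, 1 on each strand. They begin 61 and 60 bases before the RefSeq start in Cycs and 49 and 48 before it in Atp5k. The GENCODE gene of Atp5k, on the minus strand, begins at chr5:108434448, so in that annotation the matches lie within its first bases. The window of Cox8b holds no match to GCATGCG, which says only that these letters are absent there.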

How the data were processed

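RNA of RPE/choroid, labelled poly(A), was sequenced from 3 young and 3 aged mice. According to the methods and labels, the authors used BBDuk for trimming and STAR for mapping to GRCm38 transcripts, took TPM values from Sailfish, turned these into normalized counts by total count scaling and compared ages with DESeq2. Whether the means are thus already scaled by transcript length was not settled, so both the means and the means per kb are given. The signal used here is the mean normalized count over 6 libraries that the authors deposited. The other columns hold the authors' log2 fold change, its standard error, Wald statistic, p-value and adjusted p-value, and were not used, so the planned comparison of young and aged samples could not be made.

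The members and lists were chosen with earlier results of these data known. Named genes were all mitochondrial genes, central subunits, isoform pairs, genes under the minimum, and the 3 highest and 3 lowest nuclear subunits of each complex per kb. A mean of at least 10 was required. GENCODE M21 for GRCm38 gave lengths and positions, with 91.4% of rows matched by symbol or synonym, and all 113 members. Words of 50 bases measured shared sequence. The symbol rule was checked on a fixed list of symbols. Percentiles, shared words and motif matches were checked only on rewritten versions of their steps with known answers. The check of levels per kb had an outcome fixed by its construction. Software was pandas 2.3.3, numpy 2.4.6 and scipy 1.17.1 under Python 3.11.15, and matplotlib 3.10.9 for figures. The rRNA-depleted libraries were not analysed here, and a few genes that the rule would name are not reported here.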

Additional observations from a re-analysis of the deposited data

How the results depend on the processing

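No paired analysis was possible because single libraries have no values in the table, and for the same reason the planned fits to libraries, with each library left out in turn or with a replicate block, were not run. With the median transcript length, the median levels of the nuclear subunits of complexes I to V became 8222, 11301, 14809, 20245 and 12163. With the median length of coding transcripts, an alternative chosen after the data were seen, they became 6586, 8728, 11653, 14654 and 13035. With the counts of copies added, also chosen later, complexes I, IV and V moved to 4134, 12120 and 8932. Complex IV stayed the highest and complex I the lowest in each of these. Not divided by length, an alternative added for the doubt on TPM, complexes I to V were at 4785, 11045, 8627, 10535 and 7677 and the mitochondrial genes at 8735, so complex II was the highest and complex I the lowest. The median level of the mitochondrial genes fell to 6581 when only genes with at least 50% own sequence were kept. The ratio of subunits to assembly factors was 12.8, 10.6 and 16.3 in the first 3 settings, 10.4 with at least 50% own sequence and 6.21 not divided by length. The median percentile of the subunits, 95.6, became 95.7 and 96.9 with the other lengths, 96.7 with no minimum, 94.4 with a mean of at least 100 and 93.3 not divided by length. Without mitochondrial rows the members held 1.78% of the counts. Atp5g1 was below Atp5g2 per kb, at a ratio of 0.341, but above it at 2.14 when counts were not divided by length. Over all 87 member windows the shares with the NRF1 core, the ETS core, the YY1 core, the TATA box and the longer NRF1 stretch were 23.0%, 40.2%, 16.1%, 10.3% and 14.9%. The spread between mice and the depth of a library set no error on any value here.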
